A study of Homo sapiens with 6 samples.

Results

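Genes of cholesterol synthesis, sensing and intracellular transport were followed in HepG2-hCAR cells, 1 clone derived from the liver carcinoma line HepG2. These cells carry a lentivirus from which human CAR, the constitutive androstane receptor encoded by NR1I3, is switched on by doxycycline, a tetracycline antibiotic. There were 3 libraries from cells given doxycycline at 1 µg/ml for 72 h and 3 from cells of the same clone given vehicle for 72 h. Both groups carry the inducible receptor and descend from puromycin-selected cells. Because the parent line was not given doxycycline in any library, what the drug does by itself and what CAR does cannot be told apart. The genes were a list of 31 symbols taken in pathway order, of which 30 were in the expression table of 11456 genes. The expression of INSIG1 was not analysed here.

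Cholesterol is built from acetyl-CoA in a chain of cytosolic and endoplasmic reticulum enzymes. The early enzymes make mevalonate and turn it into farnesyl diphosphate, which feeds both sterols and the lipid anchors of proteins. Squalene synthase commits the chain to sterols, and the late enzymes shape lanosterol into cholesterol. The genes of the chain are activated by SREBP2, the product of SREBF2, a membrane-bound transcription factor that SCAP escorts to the Golgi when sterols are low and that INSIG proteins hold back when sterols are high. Cholesterol taken up in lipoproteins leaves the lysosome through NPC2 and NPC1, moves between membranes on carriers such as STARD4 and OSBP, and is stored as ester by SOAT enzymes. Hepatocytes are a main site of these steps, since they make, import, secrete and excrete cholesterol.

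Levels are in FPKM, which relates the fragments of a gene to the length of its transcripts and to all fragments mapped in the library. The receptor gene NR1I3 stood at 331, 317 and 316 FPKM in doxycycline libraries and at 3.15, 3.01 and 3.56 FPKM in vehicle libraries, so each library matched its label, although the cDNA and the endogenous gene cannot be told apart in these values. All 8 hepatocyte markers examined were in the table. Their summed level was 817 to 826 FPKM in doxycycline libraries and 1932 to 2091 FPKM in vehicle libraries, while albumin (ALB) had only 0.373 ± 0.0951 FPKM with doxycycline and 1.87 ± 0.0837 FPKM with vehicle (mean ± SD over the 3 libraries of each group, here and below). HNF4A overlapped between the groups (5.30 ± 2.56 FPKM with doxycycline and 7.97 ± 0.471 FPKM with vehicle, adjusted p = 0.151 by limma). Neither HNF4A nor SERPINA1 (adjusted p = 0.0507 by limma) was called, and the other hepatocyte markers were called lower. Of 2 leukocyte markers CD68 was in the table (5.08 ± 0.618 FPKM with doxycycline and 8.4998 ± 0.211 FPKM with vehicle), and of 5 fibroblast markers PDGFRB and ACTA2 were (summed 17.0 to 18.3 FPKM with doxycycline and 19.1 to 20.2 FPKM with vehicle). PDGFRB was higher (1.43 ± 0.0327 FPKM with doxycycline and 0.856 ± 0.0957 FPKM with vehicle, adjusted p = 0.00397 by limma), and ACTA2 was lower (16.4 ± 0.780 FPKM with doxycycline and 18.6 ± 0.668 FPKM with vehicle, adjusted p = 0.0394, called in 8 of 15 alternative fits). PTPRC, COL1A1, COL1A2, DCN and the 3 endothelial markers were not analysed here. Of 4 bile duct markers 3 were in the table (KRT19, SOX9 and EPCAM), with a summed level of 264 to 267 FPKM in doxycycline libraries and 239 to 248 FPKM in vehicle libraries. KRT19 was higher (134 ± 2.37 FPKM with doxycycline and 90.8 ± 2.97 FPKM with vehicle, adjusted p = 1.07e-04 by limma), while SOX9 (59.1 ± 2.84 FPKM with doxycycline and 68.1 ± 0.910 FPKM with vehicle, adjusted p = 0.0123) and EPCAM (73.2 ± 0.787 FPKM with doxycycline and 84.2 ± 3.12 FPKM with vehicle, adjusted p = 0.00658) were lower. The part of these marker differences in the results below was not tested. Both groups are the same clone, and bulk RNA cannot tell a change in some cells from a change in all. Nothing in the labels tells whether replicate libraries are separate cultures. Otherwise the spread behind each p-value is that among these samples alone and may be technical.

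Of the 30 genes, 10 changed, in both directions and by small amounts, and 20 did not pass the test. Doxycycline cells had more mRNA of SREBF2, of MBTPS1, the protease that makes the first cut in SREBP2, of the sterol carrier STARD4 and of the esterifying enzyme SOAT1. They had less mRNA of 5 synthesis enzymes (ACAT2, PMVK, FDPS, LBR and MSMO1) and of the lysosomal cholesterol exporter NPC1. In a limma fit of log2(FPKM + 1) across all 10469 genes with a mean of at least 1 FPKM, with Benjamini-Hochberg adjustment, 10 of the 30 were called at an adjusted p below 0.05, 4 higher and 6 lower. Of all genes tested 28.8% were called (15.2% higher and 13.6% lower), so the 33.3% called here is close to the share in the whole table. All 30 passed the minimum level. The largest absolute log2 fold change was 0.46, and 0 of the 30 reached 1, as against 234 of all genes tested. The median log2 fold change was -0.06, beside 0.01 over all genes tested. The groups did not overlap in 14 of the 30 genes, where 47.1% of all genes tested did not overlap.

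**Figure D1:**
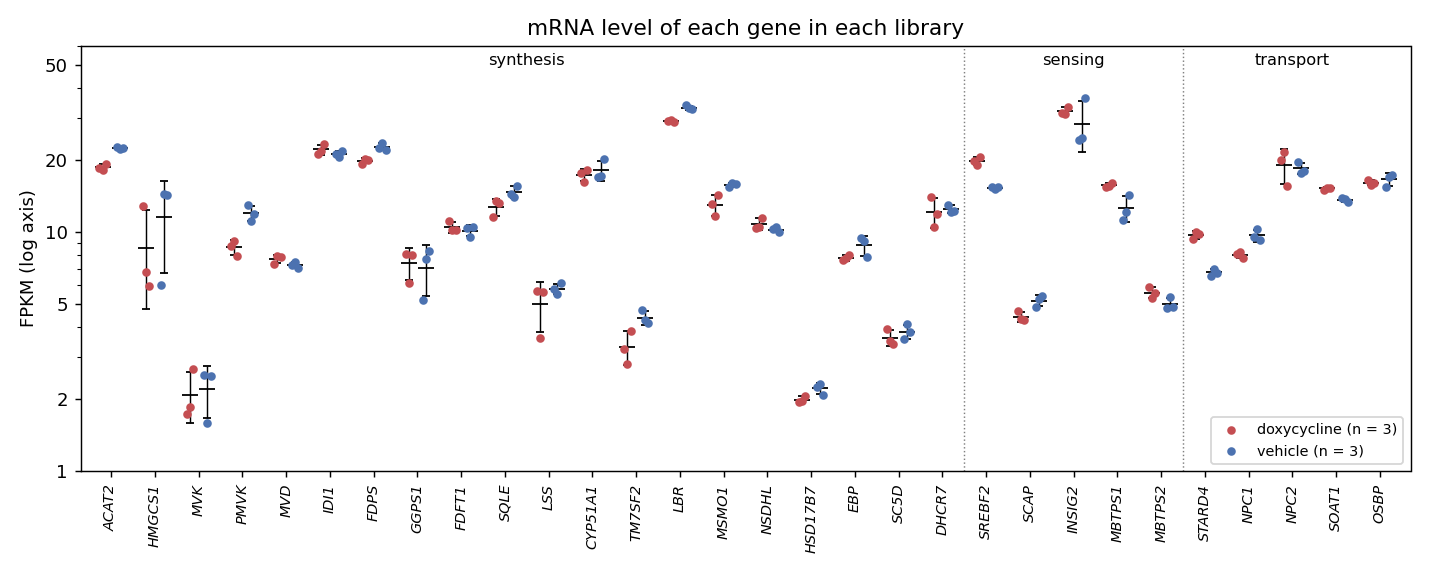
FPKM (log axis) of the 30 genes in pathway order, in doxycycline (red, left of each pair) and vehicle (blue) libraries; each point is a library, and the black lines give mean ± SD (n = 3). Levels run from about 2 FPKM (MVK, HSD17B7) to above 30 FPKM (LBR, INSIG2), and HMGCS1 is spread widely in both groups.

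Levels per transcript length differed more between the genes than between the groups. Over the 6 libraries LBR (31.1 FPKM) and INSIG2 (30.2 FPKM) had the highest means, followed by IDI1 (21.7), FDPS (21.3) and ACAT2 (20.6). The order of neighbours depended on the group. Among doxycycline libraries INSIG2 (31.1 to 33.4 FPKM) was above LBR (28.9 to 29.4), and IDI1 (21.3 to 23.3) was above FDPS (19.3 to 20.2), each without overlap. Among vehicle libraries LBR (32.6 to 33.8) lay within the spread of INSIG2 (24.3 to 36.3), and FDPS (22.1 to 23.7) was above IDI1 (20.6 to 21.8). The lowest were HSD17B7 (2.10 FPKM), MVK (2.15), SC5D (3.72), TM7SF2 (3.85) and SCAP (4.79). HSD17B7 has 2 annotated pseudogenes, CYP51A1 has 3 and FDPS has 8, so reads of these genes could have been shared with copies. Exons of CYP51A1 also overlap 2 protein-coding genes on the same strand, and exons of MBTPS2 overlap YY2 in the same way.

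The promoters of 4 genes that changed are shown because their letters can be compared across genes that moved in opposite directions. They are RefSeq windows of 300 bases on GRCh38.p14, from 250 bases before to 50 after the start site, written from 5′ to 3′ on the strand of the gene. Capitals mark 3 motifs searched on both strands: TCACNCCA, the core of the sterol regulatory element that SREBP2 binds, CCAAT, bound by NF-Y, and GGGCGG, bound by Sp1. NF-Y and Sp1 are known partners of SREBP2 at such promoters. Matches that overlap are written as 1 run of capitals.
SREBF2, higher with doxycycline, chr22:41832855-41833154, plus strand: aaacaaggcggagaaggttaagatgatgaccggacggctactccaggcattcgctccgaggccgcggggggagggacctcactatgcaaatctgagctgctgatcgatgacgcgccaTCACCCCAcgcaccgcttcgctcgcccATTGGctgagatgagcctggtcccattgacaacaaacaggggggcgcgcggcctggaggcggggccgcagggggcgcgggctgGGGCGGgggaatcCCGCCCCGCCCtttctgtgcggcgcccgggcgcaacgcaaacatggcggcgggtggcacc
STARD4, higher, chr5:111512486-111512785, minus strand: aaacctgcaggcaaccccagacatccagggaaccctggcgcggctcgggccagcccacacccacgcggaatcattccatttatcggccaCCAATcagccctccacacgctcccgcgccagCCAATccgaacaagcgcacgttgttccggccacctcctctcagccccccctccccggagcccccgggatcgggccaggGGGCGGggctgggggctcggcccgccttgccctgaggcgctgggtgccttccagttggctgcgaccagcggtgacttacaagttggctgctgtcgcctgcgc
MSMO1, lower, chr4:165327419-165327718, plus strand: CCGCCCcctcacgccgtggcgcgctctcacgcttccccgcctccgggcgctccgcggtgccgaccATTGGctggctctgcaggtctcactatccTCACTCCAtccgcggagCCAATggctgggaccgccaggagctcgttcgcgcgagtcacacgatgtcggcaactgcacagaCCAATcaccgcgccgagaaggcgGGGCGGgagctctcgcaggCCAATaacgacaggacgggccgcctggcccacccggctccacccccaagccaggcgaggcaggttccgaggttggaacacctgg
FDPS, lower, chr1:155308616-155308915, plus strand: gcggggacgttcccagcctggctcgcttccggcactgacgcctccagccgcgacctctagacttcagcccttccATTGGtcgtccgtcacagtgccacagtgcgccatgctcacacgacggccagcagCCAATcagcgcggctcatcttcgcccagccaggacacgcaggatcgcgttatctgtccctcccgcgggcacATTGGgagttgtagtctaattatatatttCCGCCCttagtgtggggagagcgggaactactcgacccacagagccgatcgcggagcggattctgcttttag

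The SREBF2 window holds TCACNCCA 133 bases before the start site, CCAAT on the other strand 106 bases before it and GGGCGG 3 times, 5 to 23 bases before it. The MSMO1 window holds TCACNCCA 156 bases before the start site and 4 matches of CCAAT, 34 to 185 bases before it. STARD4 and FDPS have CCAAT and GGGCGG but not TCACNCCA in these windows. Windows were found for 28 of the 31 symbols, all but ACAT2, FDFT1 and SQLE. They include INSIG1, whose expression was not analysed and whose window held CCAAT and GGGCGG. Of the 28, 20 (71.4%) held CCAAT, 24 (85.7%) held GGGCGG and 3 (10.7%, MVK, MSMO1 and SREBF2) held TCACNCCA. Among 8263 tested genes with a window the shares were 43.6%, 78.4% and 4.57%, and among all 27305 genes with a window they were 39.7%, 48.3% and 4.80%, a gene being counted if any of its windows held the motif. CCAAT stood in 3 of the 4 windows of genes called higher and in 2 of the 5 of genes called lower, the 2 printed above. GGGCGG stood in 3 of 4 and 4 of 5, and TCACNCCA in 1 of 4 and 1 of 5. A match is only a run of letters, and no binding was measured. Other forms of the sterol regulatory element were not searched, so a window without TCACNCCA is not shown to lack such an element.

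Of the 20 synthesis enzymes 5 fell, 0 rose and 15 did not pass, with a median log2 fold change of -0.13. The share called was 25%, beside 28.8% of all genes tested (15.2% higher and 13.6% lower). Their summed level was 227, 214 and 226 FPKM in doxycycline libraries and 241, 246 and 251 FPKM in vehicle libraries, without overlap. The sums of the other groups of genes overlapped. With doxycycline and vehicle they were 75.3 to 79.9 and 60.6 to 76.2 FPKM for sensing, and 64.5 to 70.8 and 64.7 to 65.8 FPKM for transport. For all 30 genes they were 359.7 to 373.6 and 366.2 to 392.3 FPKM.

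In the part of the chain that leads to farnesyl and geranylgeranyl diphosphate, 3 of 8 genes fell. That is 37.5% called, beside 28.8% of all genes tested (13.6% lower). PMVK, phosphomevalonate kinase (ENSG00000163344, GRCh37 chromosome 1, 154897210 to 154909467, minus strand), had the largest fall of the list. It had 8.77, 9.16 and 7.92 FPKM in doxycycline libraries and 13.0, 11.2 and 11.9 FPKM in vehicle libraries. All 3 doxycycline libraries were below all 3 vehicle libraries, and PMVK fell by 28.1% (log2 fold change -0.43, SE 0.07, adjusted p = 0.00682). ACAT2, the cytosolic thiolase that starts the chain (chromosome 6, 160181360 to 160200087), had 18.5, 18.1 and 19.3 FPKM in doxycycline libraries and 22.6, 22.3 and 22.5 FPKM in vehicle libraries. The groups were well apart relative to their spread, and ACAT2 fell by 17.1% (log2 fold change -0.26, SE 0.03, adjusted p = 0.00274). Exons of ACAT2 overlap TCP1 and SOD2 on the opposite strand, and NPC1 overlaps RMC1 in the same way. The libraries mark strand, but whether the counting used it is not given in the sources used here. FDPS, farnesyl diphosphate synthase (chromosome 1, 155278539 to 155290457), had 19.3, 20.2 and 19.98 FPKM in doxycycline libraries and 22.6, 23.7 and 22.1 FPKM in vehicle libraries. Its groups did not overlap, and FDPS fell by 12.9% (log2 fold change -0.19, SE 0.04, adjusted p = 0.0141).

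The other 5 genes of this stretch did not pass. HMGCS1, the cytosolic HMG-CoA synthase, had 12.9, 6.80 and 5.93 FPKM in doxycycline libraries and 6.01, 14.4 and 14.3 FPKM in vehicle libraries. It was thus high in 1 doxycycline library and in 2 vehicle libraries, and low in the others, and the highest library exceeded the lowest 2.17-fold within the doxycycline group and 2.40-fold within the vehicle group. Its log2 fold change of -0.38 had a 95% interval of -1.35 to 0.59, the widest of the 30 genes. GGPS1, which makes geranylgeranyl diphosphate, had 8.09, 6.11 and 8.03 FPKM in doxycycline libraries and 5.19, 7.75 and 8.37 FPKM in vehicle libraries, with overlap, and its exons overlap those of TBCE on the same strand. MVK, mevalonate kinase, had 2.09 ± 0.504 FPKM with doxycycline and 2.21 ± 0.534 FPKM with vehicle. MVD, which decarboxylates mevalonate diphosphate, had 7.74 ± 0.308 FPKM with doxycycline and 7.26 ± 0.207 FPKM with vehicle. IDI1, the isomerase of isopentenyl diphosphate, had 22.1 ± 1.05 FPKM with doxycycline and 21.2 ± 0.621 FPKM with vehicle. The 95% interval of the log2 fold change was -0.03 to 0.19 for MVD and -0.05 to 0.17 for IDI1.

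In the sterol part of the chain, 2 of 12 genes fell (16.7% called, beside 28.8% of all genes tested, 13.6% lower). LBR is the lamin B receptor of the inner nuclear membrane and at the same time a sterol reductase (chromosome 1, 225589204 to 225616627). It had 28.99, 29.4 and 28.9 FPKM in doxycycline libraries and 33.8, 32.9 and 32.6 FPKM in vehicle libraries. The doxycycline libraries agree closely with each other and lie below all vehicle libraries, and LBR fell by 12.1% (log2 fold change -0.18, SE 0.03, adjusted p = 0.00537). MSMO1, the methylsterol monooxygenase that takes methyl groups off the ring (chromosome 4, 166248775 to 166264312), had 13.0, 11.6 and 14.2 FPKM in doxycycline libraries and 15.4, 16.0 and 15.9 FPKM in vehicle libraries. MSMO1 fell by 17.7% (log2 fold change -0.27, SE 0.07, adjusted p = 0.0369), with a wider spread in the doxycycline group. The MSMO1 call was held in 9 of 15 alternative fits, with an adjusted p of up to 0.0998, and it ended when replicate number was a block, or when doxycycline replicate 1, doxycycline replicate 2 or any 1 of the vehicle replicates was left out.

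TM7SF2 does the same reduction as LBR. It had 3.24, 2.81 and 3.87 FPKM in doxycycline libraries and 4.71, 4.30 and 4.15 FPKM in vehicle libraries. All doxycycline values lay below all vehicle values, but the call was missed narrowly (log2 fold change -0.33, adjusted p = 0.0537, range over the alternatives 0.0208 to 0.143). Part of TM7SF2 overlaps VPS51 on the same strand. Within a library LBR stood 8.94, 10.4 and 7.47 times above TM7SF2 in doxycycline cells and 7.18, 7.64 and 7.86 times above it in vehicle cells. The groups overlap, and the log2 difference of 0.23 had an exact two-sided permutation p of 0.3, where the smallest that 3 against 3 libraries allow is 0.1.

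SQLE, the squalene epoxidase and a rate-limiting step, had 11.6, 13.5 and 13.2 FPKM in doxycycline libraries and 14.5, 13.9 and 15.6 FPKM in vehicle libraries. The groups did not overlap, but SQLE was not called (log2 fold change -0.19, 95% interval -0.36 to -0.02, adjusted p = 0.0938). HSD17B7, a ketoreductase of the sterol ring, had 1.99 ± 0.0599 FPKM with doxycycline and 2.22 ± 0.113 FPKM with vehicle, also without overlap and without a call (adjusted p = 0.182). EBP, the sterol isomerase, had 7.81 ± 0.222 FPKM with doxycycline and 8.80 ± 0.847 FPKM with vehicle, and was called only when vehicle replicate 3 was left out (adjusted p = 0.0303). LSS, lanosterol synthase, had 5.69, 3.62 and 5.64 FPKM in doxycycline libraries, with 1 low library, and 5.78, 5.52 and 6.10 FPKM in vehicle libraries. The remaining genes of this stretch had means close to each other in both groups: FDFT1, squalene synthase, CYP51A1, the lanosterol demethylase, NSDHL, a sterol decarboxylase, SC5D, a sterol desaturase, and DHCR7, a reductase of the last steps. Their log2 fold changes ran from -0.07 in SC5D to 0.07 in NSDHL. At the branch of the chain the ratio of GGPS1 to FDFT1 was 0.726, 0.600 and 0.789 in doxycycline libraries and 0.50, 0.812 and 0.798 in vehicle libraries, a log2 difference of 0.03 (exact permutation p = 1.0).

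**Figure D2:**
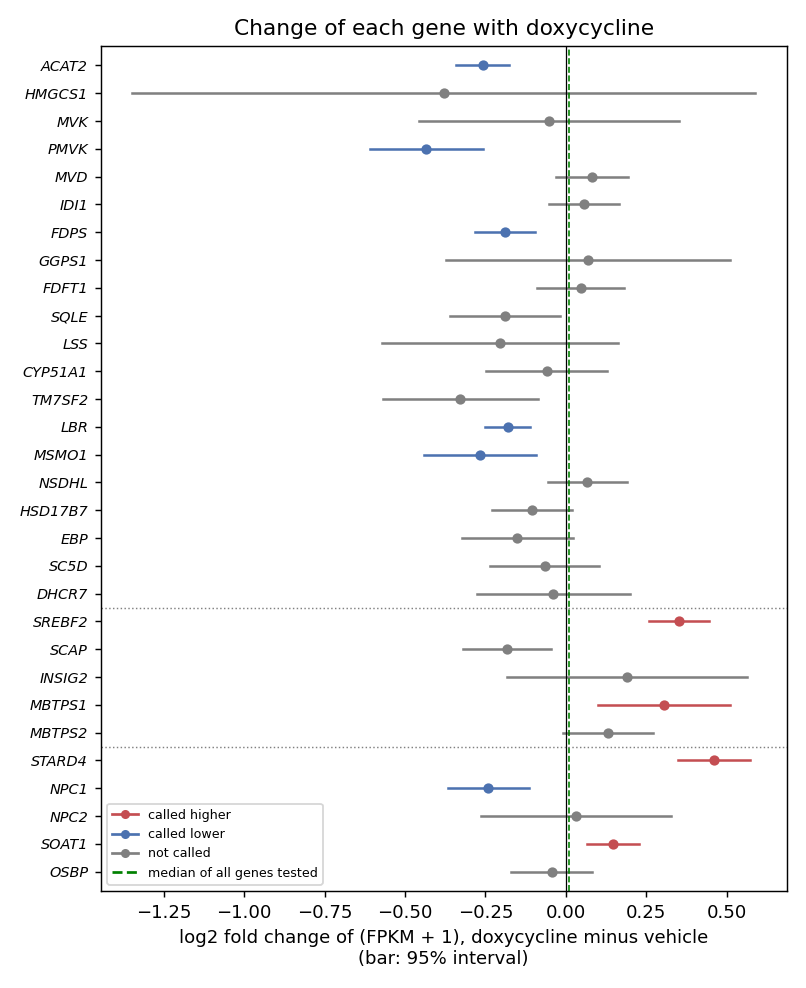
Log2 fold change of (FPKM + 1), doxycycline minus vehicle, for the 30 genes in pathway order, with 95% intervals from limma; dotted lines separate synthesis, sensing and transport. The 6 blue genes were called lower and the 4 red genes higher, and the dashed line is the median of all genes tested (0.01).

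Of the 5 sensing genes measured 2 rose, 0 fell and 3 did not pass, with a median log2 fold change of 0.19. This median is the value of INSIG2, which was not called. As a share 40% were called, beside 28.8% of all genes tested (15.2% higher). SREBF2 (ENSG00000198911, chromosome 22, 42229083 to 42303312, plus strand) had 19.9, 19.0 and 20.53 FPKM in doxycycline libraries and 15.4, 15.2 and 15.4 FPKM in vehicle libraries. The vehicle libraries were nearly equal and all doxycycline libraries were well above them. SREBF2 was 29.5% higher with doxycycline (log2 fold change 0.35, SE 0.04, adjusted p = 0.00127), and was called in all 15 alternative fits. An annotated antisense RNA overlaps the exons of SREBF2, as others do for STARD4 and FDPS.

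MBTPS1, the protease of the Golgi that cuts SREBP2 first (chromosome 16, 84087366 to 84150511), had 15.5, 15.6 and 16.1 FPKM in doxycycline libraries and 11.3, 12.1 and 14.3 FPKM in vehicle libraries. The groups did not overlap, with vehicle replicate 3 close to the doxycycline libraries. MBTPS1 was 1.25-fold as high (log2 fold change 0.30, SE 0.08, adjusted p = 0.0404). The MBTPS1 call ended in 6 of 15 alternative fits (adjusted p up to 0.111), namely with quantile normalization and when any 1 of the doxycycline replicates, vehicle replicate 1 or vehicle replicate 2 was left out. MBTPS2, the protease that makes the second cut, had 5.58 ± 0.286 FPKM with doxycycline and 5.01 ± 0.279 FPKM with vehicle and did not pass (adjusted p = 0.145).

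SCAP, the escort of SREBP2, had 4.66, 4.32 and 4.30 FPKM in doxycycline libraries and 4.84, 5.27 and 5.38 FPKM in vehicle libraries. The values of SCAP did not overlap, its log2 fold change was -0.18 and the call was missed narrowly (adjusted p = 0.0552, range over the alternatives 0.0401 to 0.149). INSIG2, which retains SCAP in the endoplasmic reticulum, had 31.5, 31.1 and 33.4 FPKM in doxycycline libraries and 24.3, 24.6 and 36.3 FPKM in vehicle libraries. Vehicle replicate 3 was above all doxycycline libraries and the other vehicle libraries were below them. INSIG2 was not called (log2 fold change 0.19, adjusted p = 0.399), and without vehicle replicate 3 it was (log2 fold change 0.37, adjusted p = 0.00500). The 95% interval of INSIG2 with all libraries was -0.18 to 0.56.

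Of the 5 transport and storage genes 2 rose and 1 fell (60% called, beside 28.8% of all genes tested). STARD4, a soluble carrier that moves cholesterol between membranes (ENSG00000164211, chromosome 5, 110831731 to 110848288, minus strand), had 9.31, 9.96 and 9.85 FPKM in doxycycline libraries and 6.56, 7.02 and 6.76 FPKM in vehicle libraries. The groups were far apart relative to their spread, and STARD4 had the largest change of the 30 genes, at 1.43-fold (log2 fold change 0.46, SE 0.05, adjusted p = 8.91e-04). STARD4 was called in all 15 alternative fits.

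NPC1, the lysosomal membrane protein that exports cholesterol (chromosome 18, 21086148 to 21166862), had 8.10, 8.24 and 7.76 FPKM in doxycycline libraries and 9.49, 10.3 and 9.24 FPKM in vehicle libraries. Without overlap, NPC1 fell by 17.0% (log2 fold change -0.24, SE 0.05, adjusted p = 0.0176), a call that ended only without doxycycline replicate 3 (adjusted p = 0.0572). Its soluble partner NPC2, which hands cholesterol to NPC1, had 20.05, 21.6 and 15.5 FPKM in doxycycline libraries and 19.7, 17.7 and 18.0 FPKM in vehicle libraries, with overlap. The ratio of NPC1 to NPC2 was 0.404, 0.381 and 0.501 in doxycycline libraries and 0.483, 0.582 and 0.513 in vehicle libraries, a log2 difference of -0.30 with an exact permutation p of 0.2. Adjusted over the 3 ratios computed, p was 0.45 for NPC1 to NPC2, 0.45 for LBR to TM7SF2 and 1.0 for GGPS1 to FDFT1. The ratio of INSIG1 to INSIG2 was not analysed here.

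SOAT1, the sterol acyltransferase that makes cholesteryl ester in most cells (chromosome 1, 179262849 to 179327815), had 15.0, 15.3 and 15.3 FPKM in doxycycline libraries and 13.9, 13.7 and 13.3 FPKM in vehicle libraries. The doxycycline libraries lay above all vehicle libraries, and SOAT1 was 1.12-fold as high (log2 fold change 0.15, SE 0.03, adjusted p = 0.01998). The SOAT1 call was held in 10 of 15 alternative fits, with an adjusted p of up to 0.0661, and ended when replicate number was a block and without doxycycline replicate 2 or 3 or vehicle replicate 2 or 3. OSBP, which exchanges sterol for a phosphoinositide at contacts with the Golgi, had 16.1 ± 0.398 FPKM with doxycycline and 16.6 ± 1.03 FPKM with vehicle, and a 95% interval of the log2 fold change of -0.17 to 0.08.

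**Figure D3:**
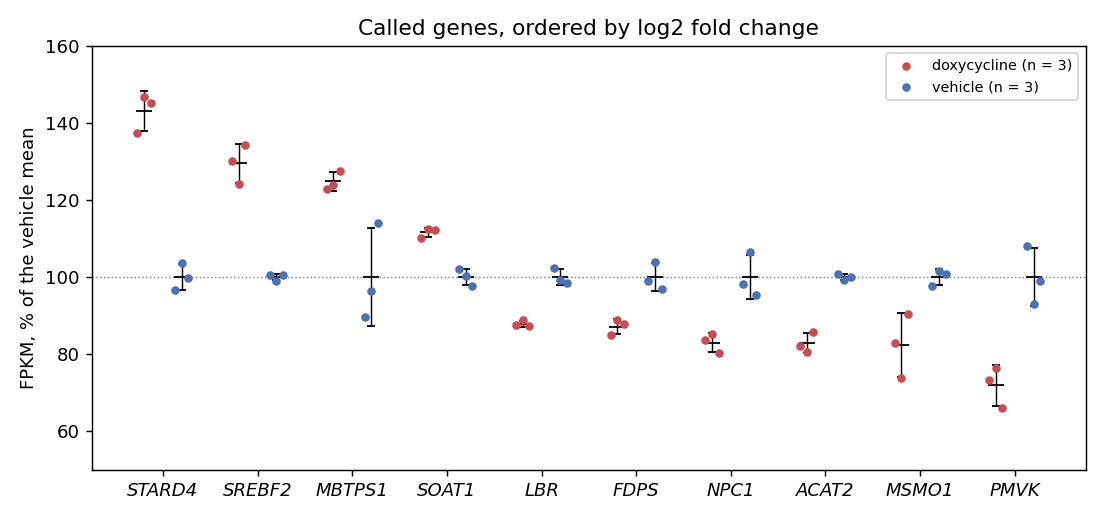
FPKM of the 10 called genes in each library as a percentage of the vehicle mean, doxycycline (red) left of vehicle (blue), with mean ± SD (n = 3), ordered by log2 fold change. STARD4, SREBF2, MBTPS1 and SOAT1 lie above the vehicle libraries and the other 6 below them.

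For 15 of the 20 genes that were not called, the 95% interval lay within 0.5 on the log2 scale in both directions. The changes of all 30 genes were below 0.5 in size, so this limit does not set uncalled genes apart from called ones. Intervals of low genes also depend on the pseudocount. The SE of MVK was 0.17 here and 0.23 with a pseudocount of 0.1. The intervals of HMGCS1, GGPS1, LSS, TM7SF2 and INSIG2 reached beyond 0.5 in at least 1 direction, that of TM7SF2 (-0.57 to -0.09) only toward lower levels. Of the 10 calls, 6 (ACAT2, PMVK, FDPS, LBR, SREBF2 and STARD4) were held in all 15 alternative fits.

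Other genes that make, sense or move cholesterol and were not in the list of 31 were counted from 5 further lists, in which 58 of 72 symbols were in the table and 55 were tested (11 higher, 13 lower, 43.6% called, beside 28.8% of all genes tested, 15.2% higher and 13.6% lower). Of 13 tested genes of synthesis and the isoprenoid branch 3 rose and 4 fell, with a median log2 fold change of -0.02. ACAT1, the mitochondrial thiolase, had 12.6, 13.8 and 13.7 FPKM in doxycycline libraries and 17.7, 17.9 and 17.1 FPKM in vehicle libraries. All doxycycline libraries lay below all vehicle libraries, and ACAT1 fell by 23.8% (log2 fold change -0.37, SE 0.05, adjusted p = 0.00232).

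Of 17 tested genes of sensing and of the breakdown of pathway proteins 4 rose and 4 fell, with a median log2 fold change of 0.01. That is 47.1% called, beside 28.8% of all genes tested. The 8 calls became 4 (1 higher, 3 lower) without doxycycline replicate 1 and 5 (2 higher, 3 lower) without vehicle replicate 1 or 3, and 2 were higher with the replicate block. Without vehicle replicate 2, 5 were higher and 2 lower. SPRING1, a Golgi protein needed for SREBP activation that the table lists as C12orf49, had 7.72, 7.94 and 7.87 FPKM in doxycycline libraries and 4.47, 4.64 and 4.08 FPKM in vehicle libraries. That is 1.78-fold (log2 fold change 0.71, adjusted p = 2.69e-04), a larger change than that of any of the 30 genes. MYLIP, a ubiquitin ligase induced by sterol-sensing nuclear receptors, had 1.05, 1.17 and 0.534 FPKM in doxycycline libraries and 1.80, 2.39 and 2.15 FPKM in vehicle libraries (log2 fold change -0.71, adjusted p = 0.0161), and its call ended without vehicle replicate 2 (adjusted p = 0.0544) or 3 (0.0511). PAQR3, which holds SCAP and SREBP in the Golgi, had 2.85, 2.76 and 2.63 FPKM in doxycycline libraries and 1.82, 0.960 and 1.83 FPKM in vehicle libraries. The PAQR3 call (adjusted p = 0.0335) ended without any 1 of the doxycycline replicates (adjusted p of 0.0767 to 0.0918) and with the replicate block (0.0559).

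Among 16 tested genes of transport and storage 2 rose and 2 fell, with a median log2 fold change of 0.09. The share called was 25%, beside 28.8% of all genes tested. SOAT2, the sterol acyltransferase of hepatocytes and intestine, had 1.36, 0.868 and 0.909 FPKM in doxycycline libraries and 5.08, 5.15 and 4.46 FPKM in vehicle libraries. Doxycycline cells held 0.213 of the vehicle level (log2 fold change -1.53, SE 0.11, adjusted p = 2.24e-04), opposite to SOAT1. The ratio of SOAT1 to SOAT2, chosen after its values were seen, was 11.1, 17.7 and 16.8 in doxycycline libraries and 2.74, 2.66 and 2.99 in vehicle libraries. GRAMD1A, a carrier of cholesterol from the plasma membrane to the endoplasmic reticulum, had 24.2, 21.9 and 22.4 FPKM in doxycycline libraries and 12.8, 12.5 and 12.4 FPKM in vehicle libraries, a 1.81-fold difference (log2 fold change 0.81, adjusted p = 9.76e-05). LIPA, the lysosomal lipase that frees cholesterol from ester, fell by 34.5%, with 9.23 ± 0.948 FPKM with doxycycline and 14.1 ± 0.455 FPKM with vehicle (adjusted p = 0.00243).

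In the list of uptake and efflux genes 1 of 6 rose and 2 fell (50% called, beside 28.8% of all genes tested). The 3 calls became 1 without doxycycline replicate 1 or 2 or vehicle replicate 1, and 2 without any other single library. ABCA1, which exports cholesterol to apolipoprotein A1, had 5.34, 5.37 and 4.96 FPKM in doxycycline libraries and 10.0, 11.04 and 10.3 FPKM in vehicle libraries. Doxycycline cells held 0.4998 of the vehicle level (log2 fold change -0.88, adjusted p = 1.27e-04). ABCG8, part of the sterol exporter of bile, had 2.61 ± 0.267 FPKM with doxycycline and 3.46 ± 0.326 FPKM with vehicle, a call (adjusted p = 0.0366) that ended without doxycycline replicate 1 or 2 or vehicle replicate 1 or 3 (up to 0.103). Of 3 tested genes of bile acid synthesis CYP27A1, the mitochondrial sterol hydroxylase, rose (42.4 ± 3.64 FPKM with doxycycline and 30.6 ± 1.33 FPKM with vehicle, adjusted p = 0.00413). HSD3B7, an enzyme that modifies the ring of bile acid precursors, fell (26.98 ± 1.22 FPKM with doxycycline and 33.0 ± 0.670 FPKM with vehicle, adjusted p = 0.00400).

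**Figure D4:**
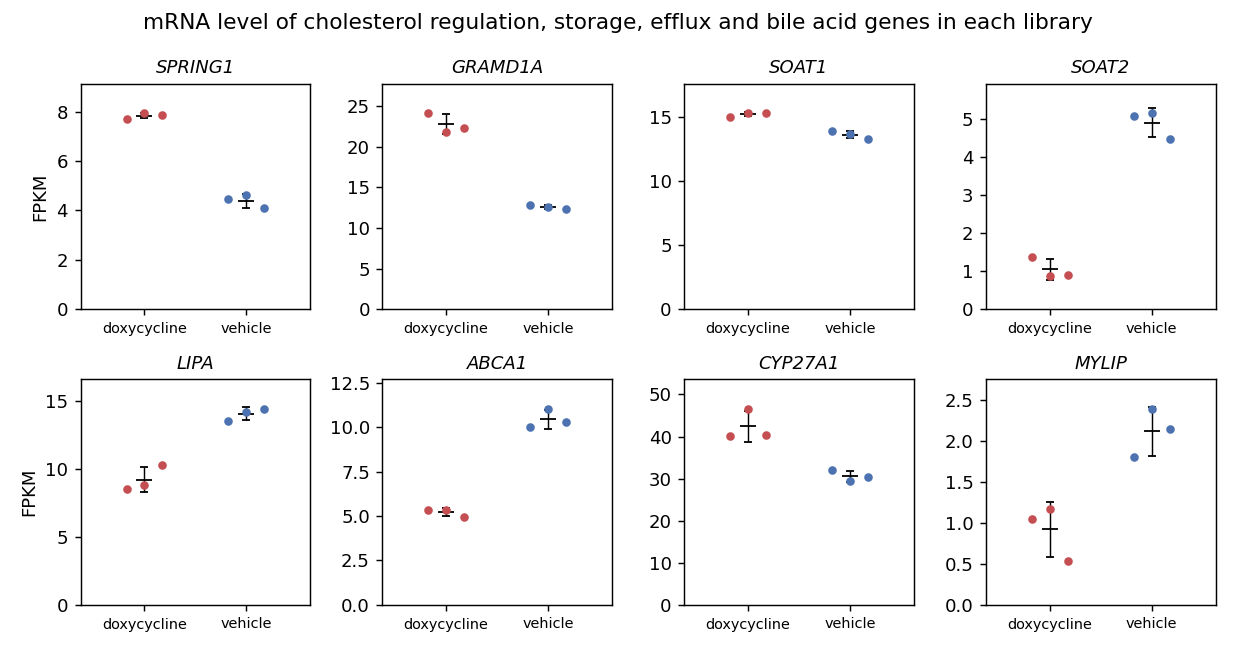
FPKM of 8 genes of cholesterol regulation, transport, storage, efflux and bile acid synthesis in each library, doxycycline (red) left of vehicle (blue), with mean ± SD (n = 3) and axes from 0. SOAT2 and ABCA1 are lower with doxycycline and SPRING1 and GRAMD1A higher, each without overlap, beside the smaller increase of SOAT1.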

How the data were processed

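RNA from 3 doxycycline and 3 vehicle samples of HepG2-hCAR cells was oligo(dT)-selected and made into strand-marked libraries, per the labels' protocols. The deposited values are FPKM computed by the authors, 1 column per library, already scaled to transcript length and mapped fragments. No counts were used, so depth is unknown and no counting interval is given. The submitters' processing notes name FastQC, cutadapt, HISAT2, StringTie and GRCh37, and versions and strand settings are not given in the sources used here. All 11461 entries are protein-coding, each with a mean of at least 0.5 FPKM in 1 group or both, and 10 of them share 5 symbols, and the entry with the highest mean was kept. Genes with a mean of at least 1 FPKM (10469) entered a limma fit (version 3.58.1, under R 4.3.3) of log2(FPKM + 1) with group as the only term and a variance trend. Tests were two-sided, with Benjamini-Hochberg adjustment, and a call needed an adjusted p below 0.05. The log2 fold changes are on that scale, which understates changes of low genes, and percentages and "fold" are ratios of mean FPKM. The fit was tested on simulated data. Within-library ratios were compared by exact permutation tests. Named outside the list are NR1I3 and up to 3 called genes of each further list with the largest absolute log2 fold change, and any gene chosen otherwise is identified. Some genes that this rule names are not reported here. The genes and lists were chosen with earlier results of these data known. Overlapping genes come from GENCODE 29, promoters from RefSeq (GRCh38.p14), and older names from Ensembl identifiers. The main fit was planned without pairing. Correlations of deviations were 0.015, -0.032 and 0.092 for same-numbered libraries and -0.098 to 0.084 for differently numbered ones. These values cover all genes together and do not exclude pairing in single genes. A fit with replicate number as a block is given below.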

Additional observations from a re-analysis of the deposited data

How the results depend on the processing

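The number of listed genes called was 10 (4 higher, 6 lower). It was 7 to 10 when each library was left out in turn, with 2 to 4 higher and 5 to 6 lower, and the number higher was 2 without doxycycline replicate 2 or 3 or vehicle replicate 2. At an adjusted p below 0.01 it was 5 (2 higher and 3 lower), and 1636 (875 higher and 761 lower) for all genes tested, where 3012 were called at 0.05 (1593 higher and 1419 lower) and 2309 to 2378 when each library was left out. The pseudocounts of 0.1 and 0.5, no filter, a minimum mean of 5 FPKM, median-ratio scaling, quantile normalization, no trend and robust moderation kept these counts within 1.5 times. With the replicate number as a block 8 listed genes (3 higher and 5 lower) and 2343 of all genes were called, and MSMO1 (adjusted p = 0.0665) and SOAT1 (0.0661) were not. TM7SF2 was called without doxycycline replicate 3 (adjusted p = 0.0208), with median-ratio scaling (adjusted p = 0.0499) and quantile normalization (0.0483), and SCAP with both (0.0496 and 0.0401), without the trend (0.0462) and without vehicle replicate 1 (0.0478). Signs turned, with no call, when single libraries were left out, with log2 fold changes of -0.199 to 0.0272 for MVK, -0.115 to 0.185 for GGPS1, -0.0996 to 0.0168 for CYP51A1, -0.138 to 0.0532 for DHCR7 and -0.0608 to 0.167 for NPC2. The log2 difference of the GGPS1 to FDFT1 ratio ran from -0.20 (without vehicle replicate 1) to 0.15 over the left-out libraries and was -0.06 without doxycycline replicate 3, that of LBR to TM7SF2 from 0.11 to 0.35 and that of NPC1 to NPC2 from -0.42 to -0.22. The cause of these differences was not tested. With FPKM alone, counting error cannot be separated from other spread.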
